A study of Mus musculus with 4 samples.

Results

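Genes of the lysosome and of endosomal sorting were described in ribosome profiling data of mouse embryonic fibroblasts, connective tissue cells taken from mouse embryos. Members were all genes of the table whose symbol belongs to the V-ATPase subunits (Atp6), the cathepsins (Cts), Lamp1 and Lamp2, the VPS genes, the sorting nexins (Snx), the adaptor complexes AP1 to AP4, or a set of lysosomal proteins, Gaa, Asah1, Grn, Npc1 and Psap among them. The rule found 78 of 4878 genes: 13 V-ATPase genes, 13 genes of lysosomal contents (hydrolases, their activators and lysosomal membrane proteins) and 52 sorting genes. The rule used names and no measured value. Lamp2, Npc2, Scarb2 and the proteolipid subunits of the proton pump were not analysed here.

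Ribosome profiling sequences the RNA fragments that ribosomes shield from RNase I, called footprints. Cells of passage 5 to 8 were transfected with a negative control siRNA (2 libraries) or with an siRNA labelled Si-eIF1A (X+18) (2 libraries), and no genotype, strain or allele was given in the sources used here. eIF1A is an initiation factor that helps the ribosome to scan the leader of the mRNA (its 5' untranslated region, 5' UTR) and to choose the start codon. Both groups went through the same lipid transfection. The labels do not tell whether libraries of a group came from different cultures, so the spread between them may be technical. Eif1a and Eif1ax were not analysed here, so the fall of the targeted factor was not checked. No RNA-seq was used here, so footprints reflect mRNA amount and translation together, and in these bulk libraries fewer cells of a type and less RNA per cell cannot be told apart.

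The lysosome is the acidic organelle in which cells digest proteins, lipids, glycogen and nucleic acids. The V-ATPase, a rotary pump with a cytosolic V1 sector that splits ATP and a membrane V0 sector that carries protons, makes it acidic. Hydrolases are made at the endoplasmic reticulum, tagged in the Golgi and carried through endosomes by adaptor complexes, retromer, sorting nexins and the tethers HOPS and CORVET, while ESCRT complexes fold membrane proteins due for digestion into the lumen. The transcription factor TFEB and its relatives bind an E-box called the CLEAR element in promoters of many of these genes.

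The palindrome TCACGTGA, the inner letters of the CLEAR element, which reads the same on both strands, was searched in the promoters. The rule chose members by name and did not use it. The element is already known from promoters of many of these genes, so a higher share among members could be foreseen and is no independent result. RefSeq promoter windows (GRCm38.p6, 250 bases before to 50 after a start site) were found for 55 of the 78 members. The palindrome was in the windows of 7 of these 55 genes (12.7%), of 113 of the 3831 genes of the table with a window (2.95%) and of 304 of all 27025 genes with one (1.12%). Counted by window, it was in 8 of 61 windows of members (13.1%) and in 0.974% of all 32851 windows. By class, it was in 2 of 8 V-ATPase genes, 2 of 9 genes of lysosomal contents and 3 of 38 sorting genes. The shorter core CACGTG, contained in it, was in 14 of the 55 members (25.5%), among them 5 of 9 genes of lysosomal contents, against 13.5% of the genes of the table. These matches are a description of letters, and no binding was measured. The sequences around the palindrome are shown because they are what these genes of all 3 classes share, with the palindrome in capitals, 5′ to 3′ on the strand of the gene.
Ctsd (chr7:142387908-142387937, minus strand): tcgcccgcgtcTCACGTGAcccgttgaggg
Ctsa (chr2:164833749-164833778, plus strand): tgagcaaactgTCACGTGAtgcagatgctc
Atp6v0d1 (chr8:105566050-105566079, minus strand): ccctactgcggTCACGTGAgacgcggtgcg
Atp6v1a (chr16:44139373-44139402, minus strand): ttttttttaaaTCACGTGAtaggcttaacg
Vps16 (chr2:130424290-130424319, plus strand): aggcggcctcgTCACGTGAccccgaagggc
Vps26a (chr10:62486970-62486999, minus strand): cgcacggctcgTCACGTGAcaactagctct
Vps33a (chr5:123573010-123573039, minus strand): tgaacgtcccgTCACGTGAcgcaggcggcg

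Relative to the start site, the palindrome began at base -183 in Vps26a, -132 in Atp6v1a, -99 in Ctsd, -19 in Vps16, -13 in Ctsa and Vps33a and -4 in Atp6v0d1, where it spans the site. Ctsa and Vps33a each held it a second time, beginning at base 4 and base -29, and Vps26a held it at base -152 of a second window. The palindrome with a G before and a C after it was found in the 3 sorting genes, Vps16, Vps26a and Vps33a, and in 1.10% of the genes of the table. The coding footprints of the 7 genes had log2 changes from -0.76 (Vps16) to -0.047 (Atp6v0d1), and none of the 7 passed the test described below.

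Libraries differed in depth, with 617663 and 547916 reads on listed genes for control replicates 1 and 2 against 458191 for knockdown replicate 1 and 280649 for knockdown replicate 2. The median member had 92 and 62 coding reads in the controls and 64 and 30 in the knockdown libraries, so knockdown replicate 2 gave the least precise values. Knockdown replicate 2 also stood apart in its share of reads on 5' UTRs, 32.4% of all listed reads, against 20.0% in knockdown replicate 1 and 11.6% and 13.7% in the controls. Of 18 fibroblast markers 7 were listed, with summed coding levels of 6809 and 9200 in the controls and 4638 and 3593 in the knockdown libraries. None of 12 leukocyte markers and none of 4 endothelial markers was among the listed genes, and of 5 epithelial markers Dsp was listed, at 109 and 146 against 82.4 and 71.8. The part of these differences in the results was not tested.

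In coding footprints, most lysosomal and sorting genes did not pass, and nearly all that did were lower after the eIF1A siRNA. Of 76 members with a mean of at least 10 normalized reads, 10 changed (13.2%): 9 fell (11.8%) and 1 rose. Over all 4619 genes tested, 29.3% changed, 18.7% lower and 10.6% higher (limma on log2 of the normalized reads plus 1, Benjamini-Hochberg adjusted p under 0.05). In 26 of the 76 members the knockdown libraries were both below the 2 controls (40.1% of all genes), and in 10 both were above (26.0% of all genes). The median log2 change was -0.12 over the members and -0.16 over all genes. Without control replicate 1 limma called 1 of the 76 members, Gaa, beside 294 of the 4619 genes, and without control replicate 2 it called 0 (7 at an unadjusted p under 0.05), beside 11 genes. Without knockdown replicate 1 it called 16, all lower, beside 1596 genes, 1170 of them lower. Without knockdown replicate 2 it called 18, 11 of them higher, beside 1729 genes, 876 of them higher. The balance of directions moved with the scaling. With TMM factors 7 members were called higher and 5 lower (789 and 764 genes of the table), and with quantile normalization 4 higher and 5 lower (695 and 694 genes). TMM moved the median of all genes from -0.16 to 0.012.

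Of the 3 classes, lysosomal contents had the lowest median under each scaling and with each library left out. The median log2 change was -0.57 over the 13 genes of lysosomal contents and -0.16 over all genes. Of the 13, 3 fell (23.1%, beside 18.7% of all genes) and 11 had a change below 0 (beside 2632 of all 4619 genes). The median was 0.065 over the 13 V-ATPase genes, where 1 rose and 1 fell, and -0.11 over the 50 sorting genes tested, where 5 fell. All 13 genes of lysosomal contents also passed a minimum mean of 50. Under it the median was -0.35 for sorting and -0.29 over all genes, of which 547 of 1858 fell. The part of read depth in the class medians was not tested. Over the 2 other scalings the median stayed below 0 for lysosomal contents (-0.40 with TMM factors, -0.30 with quantile normalization) and above 0 for the V-ATPase (0.24 and 0.25, but -0.047 with a minimum mean of 50), while that of the sorting genes turned to 0.055 and 0.019. The V-ATPase median was -0.22 without control replicate 2 and -0.33 without knockdown replicate 1, and 0.35 and 0.82 without control replicate 1 and knockdown replicate 2. The difference between the classes was not tested.

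**Figure D1:**
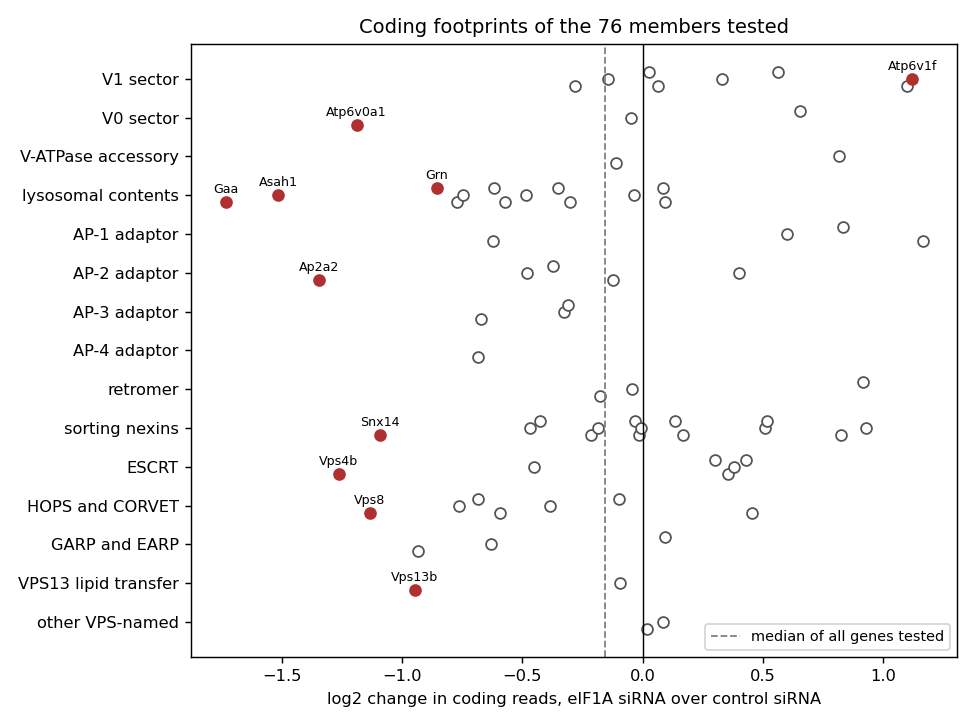
Each of the 76 members tested is a dot at its log2 change in normalized coding reads (knockdown minus control), by complex or group; filled red dots passed the limma threshold, and the dashed line is the median of all genes tested. The called genes lie to the left, from Gaa at -1.73 to Grn at -0.86, except Atp6v1f at 1.12.

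The proton pump held 1 gene that rose and 1 that fell. Atp6v1f, the small F subunit of the central stalk of V1 (chromosome 6, 29467783 to 29470509, GRCm38.p6), had 25.1 and 26.8 normalized coding reads in the controls and 69.2 and 47.9 in the knockdown libraries. Both knockdown libraries lay above both controls. Atp6v1f was 2.26 times higher in the knockdown mean (log2 change 1.12 ± 0.34, SE, limma adjusted p = 0.0223). Its call was lost with DESeq2 and without control replicate 1 (log2 1.08), control replicate 2 (1.17) or knockdown replicate 1 (0.86). Atp6v0a1, isoform 1 of the large membrane subunit a, which forms the path of the protons with the proteolipid ring (chromosome 11, 101009422 to 101063719), had 89.6 and 97.7 normalized coding reads in the controls and 36.6 and 44.7 in the knockdown libraries. The groups did not overlap, and the libraries of each group lay close together. Its mean was 2.30 times higher in the controls (log2 change -1.19 ± 0.31, SE, limma adjusted p = 0.00963), a call lost without control replicate 1 (log2 -1.25) or 2 (log2 -1.13). The other isoform measured, Atp6v0a2, had 30.1 and 34.6 in the controls and 59.0 and 44.7 in the knockdown libraries. Its knockdown libraries lay above both controls, but the log2 change of 0.65 did not pass (limma adjusted p = 0.151).

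The other V-ATPase genes did not pass. Atp6ap1, an accessory protein of V0 assembly, had 181 and 98.5 normalized coding reads in the controls and 341 and 163 in the knockdown libraries, with overlap between the groups (log2 change 0.82, limma adjusted p = 0.107). Its call was gained with TMM factors (log2 0.99) and without knockdown replicate 2 (log2 1.35). Atp6v1a, the catalytic A subunit, had 167 and 115 in the controls and 175 and 89.4 in the knockdown libraries, which enclosed both controls. Atp6ap2, the accessory protein also known as the prorenin receptor, had 152 and 95.9 against 137 and 91.0, which overlapped. With TMM factors or quantile normalization the log2 changes of Atp6v1a and Atp6ap2 turned from below to above 0. In the remaining 7 genes the log2 change ran from -0.28 (Atp6v1e1, a peripheral stalk subunit) to 1.10 (Atp6v1c1, which links V1 to V0, limma adjusted p = 0.0594). Over the 8 genes of the V1 sector the median was 0.20, and over the 3 genes of V0 it was -0.047.

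Lysosomal hydrolases and their partners held the 2 largest falls of the members. Gaa, the acid alpha-glucosidase that digests glycogen (chromosome 11, 119267963 to 119285458), had 537 and 568 normalized coding reads in the controls and 169.8 and 161 in the knockdown libraries. Libraries of a group differed little, and the groups lay far apart. The mean was 3.34 times higher in the controls, 552 ± 22.0 against 166 ± 6.10 (SD, n = 2). The log2 change was -1.73 ± 0.28 (SE, limma adjusted p = 0.000463), and the call was lost in 1 of 15 alternatives, without control replicate 2 (log2 -1.69). Asah1, acid ceramidase, which cleaves ceramide into sphingosine and a fatty acid (chromosome 8, 41340646 to 41397644), had 413 and 306 in the controls and 163 and 94.2 in the knockdown libraries. Both knockdown libraries lay below both controls, with a wider spread than for Gaa. Asah1 was 2.80 times higher in the controls (log2 change -1.51 ± 0.32, SE, limma adjusted p = 0.00276), a call that was lost without control replicate 1 (log2 -1.30) and without control replicate 2 (log2 -1.73). Grn, progranulin, the precursor of the lysosomal granulins (chromosome 11, 102430507 to 102436809), had 836 and 631 against 503 and 319 normalized coding reads. The groups did not overlap, and Grn just passed (log2 change -0.86 ± 0.31, SE, limma adjusted p = 0.0497). Its call was lost in 10 of 15 alternatives, TMM factors and DESeq2 among them, and without control replicate 1 (log2 -0.65), control replicate 2 (-1.06) or knockdown replicate 2 (-0.53).

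The other lysosomal contents did not pass and mostly leaned the same way. Psap, the precursor of the saposins that present lipids to hydrolases, had 1279.7 and 968 normalized coding reads in the controls and 909 and 482 in the knockdown libraries (log2 change -0.75, limma adjusted p = 0.106), and its groups did not overlap. Without knockdown replicate 1 Psap passed (log2 -1.21). Npc1, the cholesterol transporter of the lysosomal membrane, had 129 and 183 against 88.5 and 91.0 (log2 change -0.77, limma adjusted p = 0.0625), again without overlap. Hexa, a subunit of a hexosaminidase that digests gangliosides, had a log2 change of -0.48. The 5 cathepsins, proteases of the lumen, ran from -0.57 (Ctsb) through -0.35 (Ctsd) and -0.30 (Ctsa) to 0.083 (Ctsz) and 0.091 (Ctsl). Lamp1, the abundant glycoprotein that lines the lysosomal membrane, had 476 and 326 normalized coding reads in the controls and 449 and 329 in the knockdown libraries. These groups covered the same range (log2 change -0.036 ± 0.30, SE, limma adjusted p = 0.946), and with TMM factors the log2 change was 0.14.

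**Figure D2:**
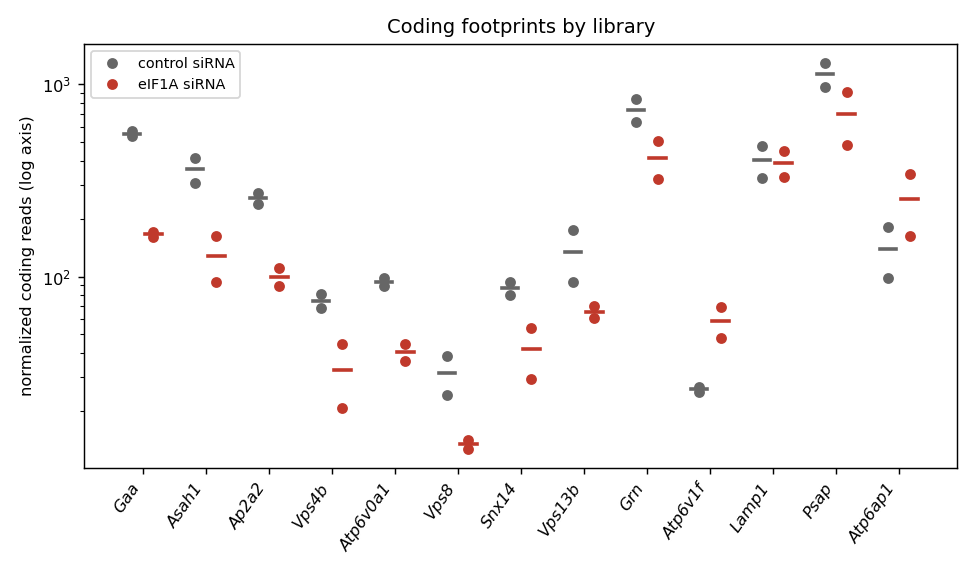
The log axis gives normalized coding reads of the 10 members called and of Lamp1, Psap and Atp6ap1. Dots are libraries and bars group means of 2 libraries, grey for the controls and red for the knockdown. The red dots lie below the grey ones from Gaa to Grn and above them for Atp6v1f. For Lamp1 and Atp6ap1 the groups overlap.

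Among adaptor complexes, which gather cargo into coated vesicles, 1 of 13 genes passed. Ap2a2, an alpha subunit of AP2 at the plasma membrane (chromosome 7, 141562180 to 141633011), had 239 and 271 normalized coding reads in the controls and 89.5 and 110.1 in the knockdown libraries. The groups lay well apart. Ap2a2 was 2.55 times higher in the controls (log2 change -1.35 ± 0.29, SE, limma adjusted p = 0.00294), and its call was lost without control replicate 1 (log2 -1.44) and without control replicate 2 (log2 -1.26). The other alpha subunit, Ap2a1, had 132 and 143 against 104 and 109, a log2 change of -0.37 that did not pass (limma adjusted p = 0.348). The beta, mu and sigma subunits Ap2b1, Ap2m1 and Ap2s1 had log2 changes of -0.48, 0.40 and -0.12. Ap2b1 had 208 and 220.4 normalized coding reads in the controls and 169 and 139 in the knockdown libraries, and Ap3d1, the delta subunit of AP3, which sorts cargo to lysosomes, had 219 and 242 against 215 and 156. The AP1 subunits of the Golgi and endosomes ran from -0.62 (Ap1b1) to 1.16 (Ap1s2), and none passed.

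Of 23 VPS genes tested, 3 fell. Vps4b, an ATPase that takes ESCRT filaments apart (chromosome 1, 106770788 to 106796725), had 68.8 and 81.2 normalized coding reads in the controls and 44.7 and 20.8 in the knockdown libraries. The knockdown libraries lay below both controls but differed from each other. Vps4b was 2.29 times higher in the controls (log2 change -1.26 ± 0.37, SE, limma adjusted p = 0.0182). Its call was lost in 4 of 15 alternatives: with DESeq2 and without control replicate 1 (log2 -1.38), control replicate 2 (-1.15) or knockdown replicate 2 (-0.73). Its paralog Vps4a had 35.8 and 34.6 against 25.4 and 25.5 (log2 change -0.45, limma adjusted p = 0.353). The 4 other ESCRT genes tested, Vps28, Vps36, Vps37a and Vps37b, lay between 0.30 and 0.43, and none passed. Vps8, the subunit that marks the CORVET tether of early endosomes (chromosome 16, 21423118 to 21644681), had 24.4 and 38.9 against 14.2 and 12.8 normalized coding reads without overlap (log2 change -1.13 ± 0.41, SE, limma adjusted p = 0.0498). Vps13b, a lipid transfer protein of the Golgi (chromosome 15, 35371118 to 35931229), had 93.1 and 174 against 61.0 and 70.2, with the controls far from each other (log2 change -0.95 ± 0.33, SE, limma adjusted p = 0.0421). Vps8 and Vps13b lost their calls in 8 of 14 and 7 of 15 alternatives, TMM factors and DESeq2 among them. Without control replicate 1 or 2 they were at -1.46 and -0.81 (Vps8) and at -1.39 and -0.50 (Vps13b), with no call.

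The tethers and retromer gave values with no further call. The 6 other genes of HOPS and CORVET ran from -0.76 (Vps16) to 0.46 (Vps11), and 5 of these 6 were below 0 (beside 2632 of all 4619 genes). Vps52 and Vps53 of the Golgi tether GARP had log2 changes of -0.93 and -0.63, and Vps51 of 0.093. The retromer subunits, which recycle receptors from endosomes, were Vps26a (-0.18), Vps26b (-0.044) and Vps29 (0.92). Vps29 had 46.6 and 25.9 normalized coding reads in the controls and 115 and 38.3 in the knockdown libraries, so 1 knockdown library was high and the other lay among the controls. Vps72 entered by its name, though its protein is known as a subunit of chromatin remodelers, and its log2 change was 0.085.

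Among 14 sorting nexins, proteins that bind phosphoinositides of endosomes, Snx14 fell. Snx14, which is anchored in the endoplasmic reticulum (chromosome 9, 88376755 to 88438929), had 80.3 and 93.3 normalized coding reads in the controls and 29.5 and 54.3 in the knockdown libraries. No knockdown library reached the controls (log2 change -1.09 ± 0.34, SE, limma adjusted p = 0.0258). Its call was lost in 7 of 15 alternatives, TMM factors and DESeq2 among them, and without control replicate 1 (log2 -1.20), control replicate 2 (-0.98) or knockdown replicate 1 (-0.66). Snx1, Snx2 and Snx6, which form tubules with retromer, had log2 changes of -0.017, -0.033 and -0.19. The largest value above 0 was that of Snx12 (0.93, limma adjusted p = 0.127). Snx16 and Snx33 had too few coding reads for the test. Snx16 had 3.58 and 2.59 in the controls against 12.2 and 7.98, and Snx33 17.2 and 1.73 against 8.14 and 4.79.

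On the leaders, the members that passed were all higher after the eIF1A siRNA. Of 78 members, 33 had a mean of at least 10 normalized 5' UTR reads, and 18 of the 33 rose (54.5%), where 46.8% of the 2101 genes of the table tested were called, 44.0% higher and 2.81% lower. A gene that reached this minimum through its knockdown libraries alone had to differ, so these counts describe the genes that passed and not all members. With all 4 libraries and the deposited scaling, none of the 33 fell by limma, edgeR or DESeq2. At an unadjusted p under 0.05, 0 were lower in the main limma fit and by edgeR and DESeq2. Limma gave 1 lower at that p without the mean-variance trend, with a replicate block or with 1 read less per value. Without a knockdown library the calls were no longer all in 1 direction. Of the 33 members, 12 had a control mean under 10 and passed through their knockdown libraries, and 9 of these 12 were among the 18. Of the 21 with a control mean of at least 10, 9 were called, beside 492 of 1397 genes of the table. Of the 45 members below the minimum, 14 were listed at 1 read in all 4 libraries, a value that may stand for 0. In 24 of the 33 the knockdown libraries were both above the 2 controls (67.4% of all genes tested), and in 1, Atp6v0a1, both were below (7.19%). The median log2 change was 1.64 over 7 V-ATPase genes, 0.54 over 7 genes of lysosomal contents and 1.47 over 19 sorting genes, beside 1.09 over all genes. Without control replicate 1 or 2 limma called 4 and 7 of the 33 members, beside 189 and 345 of the 2101 genes. Quantile normalization of the 5' UTR values moved the median of all genes from 1.09 to 0.11. Then 11 members were higher and 3 lower, beside 452 and 375 of the 2101 genes, and the median of lysosomal contents was -0.47.

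Lamp1 had the largest rise among the leaders of lysosomal contents. Its 5' UTR held 16.5 and 20.7 normalized reads in the controls and 104 and 166 in the knockdown libraries. Both knockdown libraries stood far above both controls. The mean went from 18.6 ± 3.01 to 135 ± 44.0 (SD, n = 2), 7.25 times higher (log2 change 2.76 ± 0.48, SE, limma adjusted p = 4.35e-07). Lamp1 was called in all 15 alternatives, with log2 changes from 1.81 to 3.10. The leader of Psap had 11.5 and 25.1 against 41.7 and 54.3, and that of Ctsb, cathepsin B, 20.1 and 32.0 against 62.0 and 65.4. Neither pair of groups overlapped, and both rose (log2 changes 1.43 ± 0.51 and 1.30 ± 0.50, SE, limma adjusted p = 0.0154 and 0.0229). Their calls were lost in 5 of 14 and 4 of 14 alternatives, TMM factors among them. Without control replicate 1 or 2 the log2 change was 0.90 and 1.96 for Psap and 0.97 and 1.62 for Ctsb, with no call. The leader of Gaa, whose coding footprints fell, had 53.0 and 96.8 normalized 5' UTR reads in the controls and 41.7 and 104 in the knockdown libraries. Its groups overlapped (log2 change -0.12, limma adjusted p = 0.850). Ctsa, Ctsd and Ctsz did not pass either (0.18, 0.54 and -0.27).

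**Figure D3:**
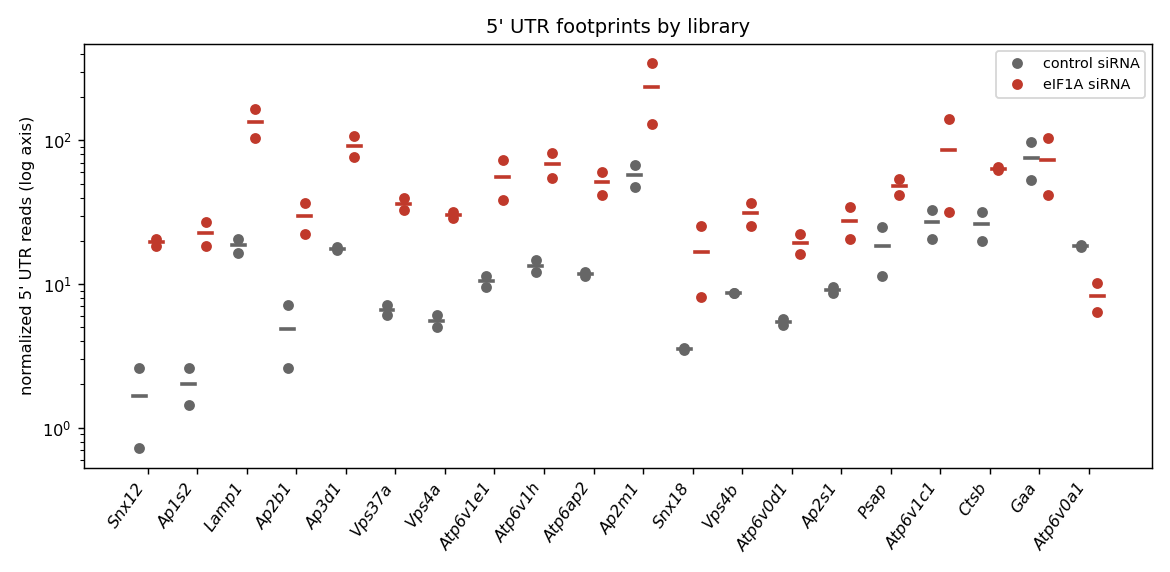
The log axis gives normalized 5' UTR reads of the 18 members called higher and of Gaa and Atp6v0a1. Dots are libraries and bars group means of 2 libraries, grey for the controls and red for the knockdown. The red dots lie above the grey ones for all 18 except Atp6v1c1, overlap them for Gaa and lie below them for Atp6v0a1.

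The leaders of 5 of 7 V-ATPase genes rose, beside 44.0% of all genes tested. Of these 5, Atp6v0d1 passed the minimum through its knockdown libraries. Of the 6 V-ATPase leaders with a control mean of at least 10, 4 were called, beside 492 of 1397 genes of the table. Atp6v1h, the regulatory H subunit, had 12.2 and 14.7 normalized 5' UTR reads in the controls and 54.9 and 81.4 in the knockdown libraries (log2 change 2.24 ± 0.51, SE, limma adjusted p = 0.000119). Atp6v1e1 had 11.5 and 9.51 against 38.6 and 73.4 (log2 change 2.25 ± 0.52, SE, limma adjusted p = 0.000167). Atp6ap2 had 11.5 and 12.1 against 41.7 and 60.7 (log2 change 2.01 ± 0.52, SE, limma adjusted p = 0.000739). In these 3 genes the controls lay close together and both knockdown libraries far above them. Without control replicate 1 the calls of Atp6v1h (log2 2.11) and Atp6ap2 (1.97) ended, and without control replicate 2 those of Atp6v1e1 (2.12) and Atp6ap2 (2.04). Atp6v0d1, the d subunit that joins V0 to the central stalk, had 5.73 and 5.19 against 16.3 and 22.3 (log2 change 1.64, limma adjusted p = 0.0230). Atp6v1c1 had 33.0 and 20.7 against 31.5 and 140.5, so the groups overlapped and its rise rested on knockdown replicate 2 (log2 change 1.32, limma adjusted p = 0.0199, and 0.26 without that library). Calls of Atp6v0d1 and Atp6v1c1 were each lost in 6 alternatives, TMM factors, DESeq2 and the loss of either control or of knockdown replicate 2 among them (Atp6v0d1 at 1.70, 1.58 and 1.42, Atp6v1c1 at 1.64 and 1.00 without the controls). The leader of Atp6v0a1 had 18.6 and 18.2 in the controls and 10.2 and 6.38 in the knockdown libraries, below both controls as in its coding region, though the log2 change of -1.09 did not pass (limma adjusted p = 0.114). Atp6v1g1, a peripheral stalk subunit, had 15.0 and 10.4 against 3.05 and 33.5, with the lowest and the highest value both in the knockdown group.

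Of 19 sorting leaders tested 10 rose (44.0% of all genes tested), but 8 of these 10 passed the minimum through their knockdown libraries. Of the 8 sorting leaders with a control mean of at least 10 only Ap2m1 and Ap3d1 were called, beside 492 of 1397 genes of the table. The AP2 subunits Ap2m1, Ap2b1 and Ap2s1 all rose. Ap2m1, the mu subunit that reads tyrosine motifs of cargo, had 47.3 and 67.4 normalized 5' UTR reads in the controls and 129 and 345 in the knockdown libraries (log2 change 1.88 ± 0.45, SE, limma adjusted p = 0.000236). Both knockdown libraries were above the controls, with replicate 2 far above replicate 1. Ap2b1 had 7.17 and 2.59 against 22.4 and 36.7, and Ap2s1 8.60 and 9.51 against 34.6 and 20.8 (log2 changes 2.45 and 1.47, limma adjusted p = 0.000356 and 0.0220). Ap3d1 had 17.2 and 18.2 against 76.3 and 107 (log2 change 2.29 ± 0.50, SE, limma adjusted p = 4.86e-05), with the groups far apart. The leader of Ap1s2, a small subunit of AP1, held 2 and 3 reads in the controls (1.43 and 2.59 normalized) and 18 and 17 in the knockdown libraries (18.3 and 27.1). Its normalized level was 11.1 times higher in the knockdown libraries, with a 95% counting interval of 4.33 to 36.3 (17.4 times, 5.47 to 88.9, with 1 read less per value), and it rose (limma adjusted p = 0.000259). The interval pools the reads of the 2 libraries of a group and holds no spread between libraries. Ap1s2 passed the minimum through its knockdown libraries, so a value above 1 was favoured by the filter. The calls of Ap2m1, Ap3d1 and Ap1s2 were lost without control replicate 1 (log2 1.63, 2.25 and 2.70), that of Ap2b1 without control replicate 2 (log2 1.86), and that of Ap2s1 in 6 of 14 alternatives, TMM factors, DESeq2 and the loss of control replicate 1 (log2 1.40), control replicate 2 (1.54) or knockdown replicate 1 (1.11) among them.

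Among ESCRT genes and sorting nexins, the leaders of Vps37a, Vps4a, Vps4b, Snx12 and Snx18 rose. All 5 had a control mean under 10 and passed the minimum through their knockdown libraries, so their number supports nothing about these groups. Vps37a, a subunit of the cargo-binding complex ESCRT-I, had 7.17 and 6.05 normalized 5' UTR reads in the controls and 32.5 and 39.9 in the knockdown libraries (log2 change 2.29, limma adjusted p = 0.000325). The paralogs Vps4a and Vps4b had 5.02 and 6.05 against 31.5 and 28.7 and 8.60 and 8.64 against 25.4 and 36.7 (log2 changes 2.26 and 1.71, limma adjusted p = 0.000668 and 0.00697). In all 3 the knockdown libraries stood clear of both controls. Snx12, a small endosomal sorting nexin, held 1 and 3 leader reads in the controls (0.717 and 2.59 normalized) and 18 and 13 in the knockdown libraries (18.3 and 20.8). Its normalized level was 12.3 times higher in the knockdown libraries, with a 95% counting interval of 4.34 to 47.9 (23.0 times, 5.82 to 199, with 1 read less per value), and it rose (limma adjusted p = 0.000501). This interval, too, pools the reads of a group without the spread between libraries, and the filter favoured a value above 1. Snx18, a membrane-bending nexin with an SH3 domain, had 3.58 and 3.46 against 8.14 and 25.5 (log2 change 1.78, limma adjusted p = 0.0290), a call lost in 6 of 14 alternatives, among them TMM factors, DESeq2 and the loss of control replicate 1 (log2 1.80), control replicate 2 (1.76) or knockdown replicate 2 (1.02). Calls of Vps37a (log2 2.18) and Vps4b (log2 1.72) ended without control replicate 2. Those of Vps4a (log2 2.14), Vps4b (log2 1.71) and Snx12 (log2 2.51) ended without control replicate 1. Retromer leaders did not pass, with log2 changes of 1.01 (Vps26a) and 0.58 (Vps26b).

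Dividing 5' UTR by coding reads compares both regions within a gene and library. Of 31 members with at least 10 normalized reads on average in both regions, 11 rose (35.5%) and none fell, where 19.5% of the 1907 genes tested were called, 19.4% higher and 0.0524% lower. Of the 11, 5 had a control mean under 10 on the leader and entered through their knockdown libraries. Of the 20 members with a control mean of at least 10, 6 were called, beside 164 of 1262 genes. At an unadjusted p under 0.05 limma gave 18 members higher and 0 lower, and no other tool was run on the ratio. The ratio in both knockdown libraries was above both controls in 19 of the 31 (63.9% of all genes tested) and below both in none (1.52%). The class medians lay close together, at 1.68 for 7 V-ATPase genes, 1.61 for 7 genes of lysosomal contents and 1.59 for 17 sorting genes, beside 1.23 over all genes. The ratio change was above 0 in 29 of the 31 members and in 1752 of the 1907 genes. In 18 of the 31 the leader had a change above 0 and the coding region one below 0, which was not counted over all genes. Without control replicate 1 or 2 limma called 0 members (2 and 4 at an unadjusted p under 0.05), beside 3 and 0 of the 1907 genes (120 and 180 unadjusted). Without knockdown replicate 1 it called 23, beside 1175 genes, and without knockdown replicate 2 it called 7, 5 higher and 2 lower, beside 252 genes higher and 24 lower. Quantile normalization, which takes each region's distribution to be alike in all libraries, left 0 members called (9 at an unadjusted p under 0.05). Beside them, 1 of the 1907 genes was called (414 unadjusted).

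The 11 genes came from all 3 classes, and Vps4b, Ap2b1, Vps4a, Snx18 and Snx12 are those that entered through their knockdown libraries. Vps4b (log2 change 2.98 ± 0.79, SE, limma adjusted p = 0.00443) was the gene where both regions passed in opposite directions, with fewer coding and more leader footprints. Ap2b1 (2.93), Lamp1 (2.80), Vps4a (2.71) and Ap3d1 (2.62) rose in leader reads and in the ratio, while their coding footprints did not pass. The V-ATPase genes Atp6v1e1 (2.53), Atp6v1h (2.17) and Atp6ap2 (2.12) rose as well, followed by Snx18 (2.25), Psap (2.18) and Snx12 (2.12). None of these 11 calls held without control replicate 1 or without control replicate 2, where the log2 changes were 2.37 and 3.23 for Lamp1 and 3.09 and 2.86 for Vps4b. Without knockdown replicate 2 no call was left for Atp6v1e1 (log2 1.64), Atp6v1h (1.80), Atp6ap2 (1.56), Snx18 (0.86), Psap (1.54) and Snx12 (1.45). Gaa had a ratio change of 1.61 that did not pass (limma adjusted p = 0.112). Atp6v0a1 had a ratio change of 0.095, with changes below 0 in both regions, of which that of the leader did not pass. Atp6v1c1 had 0.22, with changes above 0 in both regions. Its coding change did not pass, and its leader change rested on knockdown replicate 2.

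**Figure D4:**
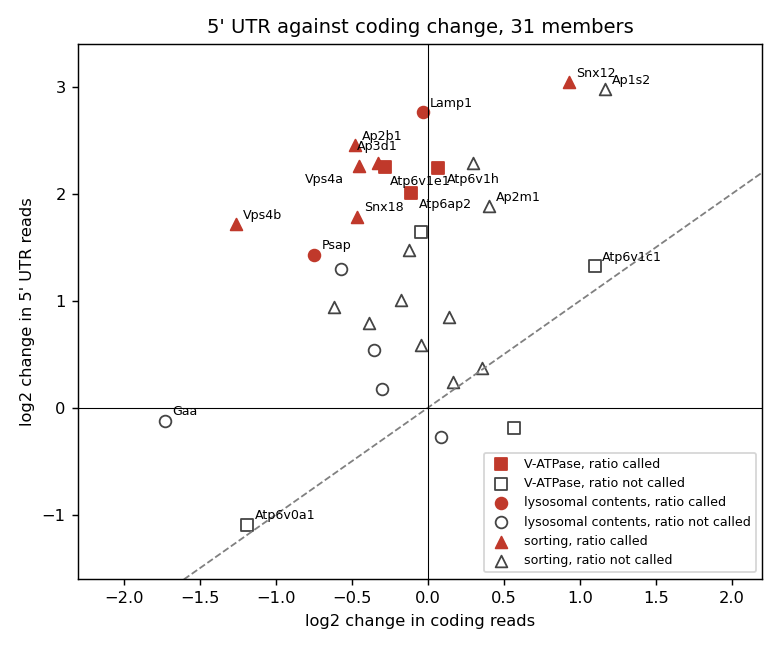
The log2 change in 5' UTR reads (vertical) is set against that in coding reads (horizontal), knockdown minus control, for the 31 members tested in both regions; shapes are classes, red symbols passed in the ratio, and the dashed line marks equal change. Of the 31 members, 29 lie above the line, beside 1752 of all 1907 genes tested with a ratio change above 0. Gaa lies far to the left at a leader change of -0.12.

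In some members more normalized reads lay on the leader than on the coding region. This held for 3 and 5 of 78 members in control replicates 1 and 2, for 7 in knockdown replicate 1 and for 17 in knockdown replicate 2, beside 7.44%, 11.4%, 13.5% and 27.3% of all listed genes. Snx16 and Snx33 were among them in every library. Snx33 had 21.5 and 30.3 normalized 5' UTR reads in the controls and 25.4 and 41.5 in the knockdown libraries, and Snx16 5.73 and 13.8 against 21.4 and 25.5. Neither passed (limma adjusted p = 0.604 and 0.0501). Ap1s2, Ap2s1, Ap4b1, Vps37a and Vps4a were among them in both knockdown libraries and in no control. Ap2m1 joined in knockdown replicate 2, with 345 normalized reads on the leader and 104 on the coding region.

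Summed over the members, the share of reads on leaders was 5.81% and 8.83% in the controls and 14.1% and 29.6% in knockdown replicates 1 and 2. It was lowest in every library for lysosomal contents, at 3.32% and 6.40% in the controls and 9.32% and 19.5% in the knockdown libraries. Sorting genes had 7.94% and 10.8% against 19.3% and 34.5%. The V-ATPase genes had 10.6% and 12.9% in the controls, 13.4% in knockdown replicate 1 and 38.4% in knockdown replicate 2, so most of their difference lay in the library that also stood apart over all genes.

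**Figure D5:**
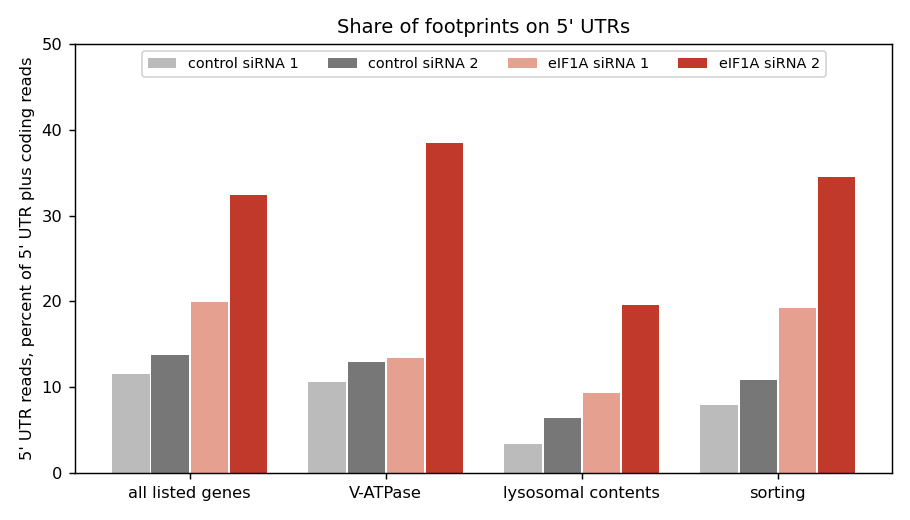
Reads on 5' UTRs as a percent of 5' UTR plus coding reads, by library, for all listed genes and for the 3 classes. Each bar is 1 library; knockdown replicate 2 (dark red) is highest in every set, from 19.5% in lysosomal contents to 38.4% in V-ATPase genes.

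Other genes of the pathway were taken from 8 lists chosen with earlier results of these data known. Their calls come from the main fit alone and were not followed over the alternatives, in which many calls of members were lost. Of 27 further lysosomal hydrolases tested, 5 fell in coding reads by limma (18.7% of all genes). Manba, beta-mannosidase, had 41.6 and 52.7 in the controls against 3.05 and 12.8 normalized coding reads in the knockdown libraries (log2 change -2.68, limma adjusted p = 0.00179). Arsa, arylsulfatase A, which digests sulfatides (-2.54), the peptidase Cpq (-2.26) and the nuclease Dnase2a (-1.51) fell with it, and the list median was -0.44. The knockdown values of Manba and of Arsa (11.2 and 3.19) stand for few reads, as 1 read was 1.02 and 1.60 in these libraries. Of 15 further lysosomal membrane proteins 2 fell, the cation channel Tpcn1 (-1.90) and the acetyltransferase Hgsnat (-1.08). Of 2 tagging enzymes tested, Nagpa, which uncovers the mannose 6-phosphate tag, rose (1.50).

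Clathrin, its receptors and adaptors gave 7 falls and 1 rise among 17 genes by limma. Over all genes tested in coding reads, 18.7% fell and 10.6% rose, the shares to set beside each coding count given here. The lists are short, and no list was tested as a set. Hip1 (-2.19), a clathrin partner, and the dynamin Dnm1 (-1.73) were among the falls. Tfrc, the transferrin receptor, rose, with 95.3 and 81.2 in the controls against 291 and 309.7 (1.76, limma adjusted p = 0.000464). Of 18 ESCRT genes outside the rule Chmp5 rose (1.29), and of 6 genes of WASH, retriever and the CCC complex Commd3 (1.39) and Fam45a (1.57) rose. Among 15 genes of mTORC1 docking at the lysosome 2 rose and 3 fell, with Rptor, the mTORC1 subunit raptor, at -1.85 and Depdc5 of its inhibitor GATOR1 at -1.55. Among 25 endosomal Rabs, SNAREs and lipid enzymes 3 fell, Ehd2 (-1.78), Rab5b (-1.37) and Fig4 (-1.24). In 5' UTR reads 23 of 46 genes tested in these lists rose by limma (44.0% of all genes), among them Rab14 (2.23), Rraga (1.95) and Igf2r (1.73), the receptor for the mannose 6-phosphate tag.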

How the data were processed

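Ribosome footprints of 4 libraries were analysed from 1 table. Per the submitters' processing notes, cutadapt, Bowtie, TopHat2, HTSeq and DESeq2 were used with genome build mm10, with no versions or order. The authors deposited a normalized signal, a read number per gene for the 5' UTR and for the coding sequence. Dividing by the smallest step of each library (0.717 and 0.864 for the controls, 1.02 and 1.60 for the knockdown) gave whole reads for 100% of coding values, with a tolerance of 0.001 reads. The 5' UTR values were divided and rounded in the same way, but their share of whole reads was not kept. The lowest value was 1 read, which may stand for 0 or 1 or hold an added read.

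Log2 of the signal plus a pseudocount of 1 was fitted with limma 3.58.1 in R 4.3.3 (mean-variance trend, Benjamini-Hochberg, threshold 0.05) on every gene with a mean of at least 10, for coding reads, 5' UTR reads and their ratio. Fold changes on this scale understate those of genes with few reads. Count tests on the recovered reads, edgeR 4.0.16 calling 1517 of 4619 genes for coding reads and DESeq2 1.42.0 calling 890, were alternatives, both with the deposited scaling. Alternatives are listed in the closing section. A single value of 2 libraries against 2 cannot reach a permutation p below 0.333, so none was run. The procedure was tested on simulated reads.

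Members, classes and lists were chosen with earlier results of these data known. Named with values were members called in any measure and the 3 members of each class with the most coding reads, which is no order of expression because reads were not divided by length. Members outside this rule are given as values of their complex. From each list, up to 4 called genes with the smallest adjusted p were named. Some genes that these rules take are not reported here. Symbols of all 78 members matched the RefSeq table of GRCm38.p6, the release of build mm10, from which coordinates and promoters come.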

Additional observations from a re-analysis of the deposited data

How the results depend on the processing

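Leaving out 1 library moved the counts of every measure, and in coding reads a replicate block moved the count further. With 1 library left out, the spread comes from 1 pair of libraries, and the lone library is assumed to vary like them. Over the 4 libraries left out in turn, limma called 0 to 18 members in coding reads, 4 to 23 in 5' UTR reads and 0 to 23 in the ratio, against 10, 18 and 11 with all libraries. The lowest counts came without a control library (0 called in coding reads, 7 at an unadjusted p under 0.05). Median log2 changes then ran for coding reads from -0.33 to 0.82 (V-ATPase), -0.79 to -0.29 (lysosomal contents) and -0.30 to 0.046 (sorting). For 5' UTR reads they ran from 1.42 to 2.27, 0.37 to 1.20 and 1.16 to 1.93, and for the ratio from 1.13 to 2.24, 0.93 to 2.25 and 1.16 to 2.30. In coding reads DESeq2 called 4 members and edgeR 15, beside 890 and 1517 of the 4619 genes. A minimum mean of 50 gave 4 members called in 5' UTR reads and 2 in the ratio, from the 5 and 4 members left. Over all genes, 232 of 372 and 111 of 286 were called there. The sorting median in coding reads was then -0.35 (-0.29 over all genes). In 5' UTR reads the medians were 1.32 and 2.09 for lysosomal contents and sorting (1.25 over all genes). With no minimum, 29 of 78 members were called in 5' UTR reads, beside 1309 of 4878 genes. Medians were 0.94 (V-ATPase) and 0.98 (sorting) there, beside 0.67 over all genes. The V-ATPase ratio had a median of 0.56, beside 0.99 over all genes. Quantile normalization, which removes a shift shared by all leaders by construction, gave 5' UTR medians of 0.68, -0.47 (reversed) and 0.50, ratio medians of 0.54, 0.26 and 0.53, and 0 calls in the ratio (9 at an unadjusted p under 0.05). A replicate block on the numbers of the titles gave 22 members called in coding reads and 19 in the ratio. Over all genes it called 1921 of 4619 and 851 of 1907. Same-numbered libraries deviated with a correlation of 0.26 across genes in coding reads and -0.061 in 5' UTR reads. The share of genes deviating in the same direction was 61.5% in coding reads and 68.1% in 5' UTR reads. With 2 pairs these values do not show that the numbers pair the samples.

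Alternatives for single members without a call in coding reads were run for 7 named genes (Ap2b1, Ap3d1, Atp6ap1, Atp6ap2, Atp6v1a, Lamp1 and Psap). Of these, the coding change turned sign for Ap3d1 with quantile normalization (0.0072). With TMM factors they turned for Atp6ap2 (0.063), Atp6v1a (0.027) and Lamp1 (0.14), and with quantile normalization for the same genes (0.15, 0.12 and 0.29). Leaving out 1 library turned them too, over ranges from -0.44 to 0.22, -0.63 to 0.33 and -0.31 to 0.24. No called value of a named member turned sign. Apart from the quantile setting the causes were not tested. The other alternatives (pseudocounts of 0.5 and 5, TMM factors, no mean-variance trend and, added after seeing the data, 1 read less per value) left these counts within 1.5 times and the medians within 1 SD of the replicates. TMM factors still changed which members were called in coding reads. They kept 6 of the 10 calls and gave 7 higher and 5 lower. For the V-ATPase coding median of 0.065 this SD was 0.63, a wide range. The ratio was not run with the count tests. Depth limits the 5' UTR values most, where 14 members had 1 read in all 4 libraries.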
